A study of Mus musculus with 48 samples.

Results

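Heat shock proteins, chaperonins and their co-chaperones were followed through the cerebral cortex of Q140 and Msh3 mutant mice at 12 months of age. Members were taken by name: the HSP70, HSP110, HSP90 and small heat shock protein genes, the mitochondrial chaperonin pair Hspd1 and Hspe1, the CCT subunits, the Dnaja, Dnajb and Dnajc J-domain genes, Bag1 to Bag6, Hsf1 and Hsf2. A mean of at least 1 CPM, a read count scaled to a common library total, over 48 libraries was required. Of 48795 gene rows in the table, 89 carried such a name and 78 passed, under 77 symbols, because the table gives the symbol Hspa14 to 2 Ensembl identifiers, ENSMUSG00000109865 and ENSMUSG00000051396, of which GENCODE M21 names the second Gm45902. Just inside the threshold was Hspb1, at 1.31 CPM, and just outside were Hspa1l and Hspb2, at 0.530 and 0.529 CPM. The rule uses names and overall level and no difference between groups, although it was written with earlier results of these data known. All 78 members passed the filter on low counts used for testing.

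Chaperones bind unfolded or partly folded proteins and keep them from aggregating until they fold, are moved or are degraded. HSP70 proteins do this in cycles of ATP hydrolysis, with J-domain proteins delivering the client and HSP110 and BAG proteins releasing the nucleotide, while the ring-shaped chaperonin CCT folds actin, tubulin and other proteins in a closed chamber. In Huntington disease the expanded polyglutamine stretch of huntingtin aggregates, and several of these proteins, among them CCT, DNAJB1, DNAJB6 and HSP110, are known to limit that aggregation in cells or in the test tube.

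The design crossed Q140, a heterozygous knock-in of an expanded CAG repeat into the mouse huntingtin gene Htt, with Msh3 genotypes, Msh3 being a mismatch repair gene that promotes somatic growth of such repeats. The 6 groups were Q140 with both Msh3 copies intact, Q140 with Msh3+/-, Q140 with Msh3-/-, Msh3+/- alone, Msh3-/- alone, and wild type. Each had 8 mice, 4 females and 4 males, on a C57BL/6 background, and the comparisons ask how the Q140 allele and the Msh3 mutation change cortical RNA. As a model, Q140 expresses the repeat from its own locus in every cell that uses Htt, and the Msh3 mutation is likewise not restricted to a cell type by any label.

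Library totals ran from 37.7 to 68.3 M counts, with a median of 48.6 M. Xist and Ddx3y matched the labelled sex in all 24 females and all 24 males. The count of the targeted gene Msh3 was higher, not lower, in the mutants, with group means of 95.3 CPM in Q140 Msh3-/- and 99.2 CPM in Msh3-/-, of 57.9 CPM in Q140 Msh3+/- and 60.1 CPM in Msh3+/-, and of 21.8 CPM in Q140 and 22.4 CPM in wild type. It thus follows the labelled number of mutant copies but does not show a loss of transcript, the deleted part is not given in the labels, and the Msh3 genotypes below are named as labelled. Cortical glutamatergic markers summed to between 1924 and 2288 CPM in every library, against 141.5 to 189.9 CPM for striatal projection neuron markers. Male 2 of Msh3+/- held 617.6 CPM of choroid plexus markers, where the median library held 8.28 CPM, and male 2 of wild type held 44.9 CPM of pituitary markers, where the median was 0.793 CPM, and results that change without these marker-rich libraries are given both ways.

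Levels between genes are compared as FPKM, which divides by gene length. The cytosolic HSP90 gene Hsp90ab1 led at 424.6 ± 18.4 FPKM (SD, n = 48), and its stress-inducible partner Hsp90aa1 had 76.2 ± 4.14 FPKM. Hspa8, the constitutive cytosolic HSP70, had 121 ± 9.36 FPKM, whereas the stress-inducible pair Hspa1a and Hspa1b had 2.37 ± 0.224 and 2.35 ± 0.331 FPKM. The J-domain genes with the highest levels were those of synaptic vesicle traffic: Dnajc6, auxilin, which uncoats clathrin vesicles with HSP70, had 70.1 ± 2.26 FPKM, and Dnajc5, the cysteine string protein of synaptic vesicles, had 54.9 ± 1.89 FPKM. The endoplasmic reticulum members Hsp90b1 (GRP94) and Hspa5 (BiP) had 65.7 ± 4.53 and 42.1 ± 6.01 FPKM.

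The 8 CCT subunits, which the assembled rings hold in equal number, lay between 10.95 FPKM for Cct3 and 49.2 FPKM for Cct2. Their order depends on the gene length that FPKM divides by. In CPM, which does not divide by length, they ran from 60.6 for Cct4 to 125.6 for Tcp1, with Cct3 at 69.8 and Cct2 at 96.6. Of the mitochondrial chaperonins, Hspd1 (HSP60) had 31.1 FPKM and its lid Hspe1 (HSP10) had 10.8 FPKM. The small heat shock protein genes taken by name were low, from 1.27 FPKM for Hspb1 (HSP27) to 4.17 FPKM for Hspb8. Hspb8 works with Bag3 in disposing of aggregates, and Bag3 itself had 3.73 FPKM. Cryab, a small heat shock protein gene outside the naming rule, was higher. With TMM-normalized library totals it averaged 51.4 CPM in Q140 and 49.1 CPM in wild type, where Hspb8 averaged 8.10 and 8.33 CPM. Bag1 was the highest BAG gene, at 47.0 FPKM. Of the polyglutamine-related J-domain genes, Dnajb2 had 19.6, Dnajb1 17.2 and Dnajb6 3.67 FPKM. The transcription factor genes Hsf1 and Hsf2 had 17.1 and 7.01 FPKM, and the lowest member was Dnajc25, at 1.15 FPKM.

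**Figure D1:**
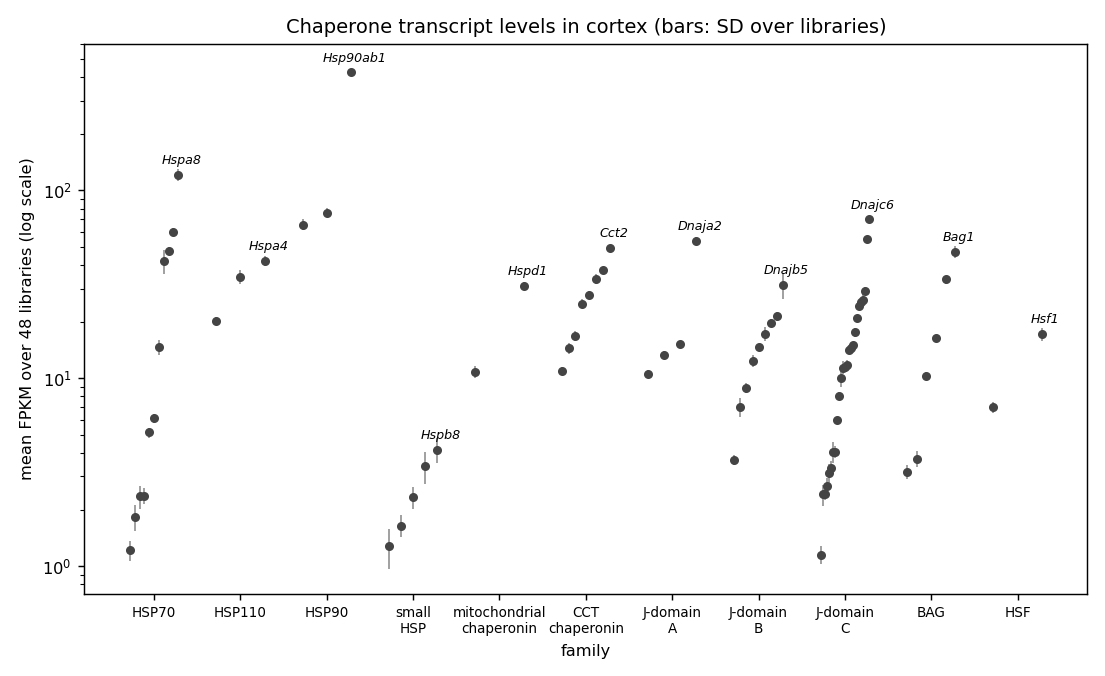
Mean FPKM of each of the 78 members over 48 libraries, on a log scale, by family, with the SD over libraries as bars and the highest member of each family named. Hsp90ab1 stands at 424.6 FPKM and the 5 small heat shock protein genes taken by name lie at 4.17 FPKM or lower.

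Some members share reads or space with other genes. The reading frames of Hspa1a and Hspa1b, of 1923 and 1926 bases, are 98.1% identical, so how their reads were divided is uncertain, and Hspa1a overlaps Gm20481 on the other strand. The Hspa14 rows overlap each other by 8264 bases on the same strand. Hspd1 and Hspe1 lie head to head and overlap by 112 bases, and Bag4 overlaps Gm17484 on the other strand. The strand setting used for counting is not given in the sources used here, so reads of such opposite-strand pairs may not have been told apart.

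Promoter windows of 4 members are shown because they hold the motif of the heat shock response: Hsph1 and Cct5, which were called in comparisons described below, Hspe1, whose matches lie closest together, and Hspa1b, of the stress-inducible pair. Heat shock factors bind head-to-head and tail-to-tail repeats of GAA, so GAANNTTC and TTCNNGAA were searched in windows from 250 bases before to 50 bases after the RefSeq starts (GRCm38.p6); each motif is its own reverse complement, so a single search covers both strands. Sequences were listed for 63 of the 77 symbols, in 83 windows. Hspa8, Hsp90aa1, Hsp90ab1, Hspa9 and Hsf1 were among the symbols without a listed window, so the member shares below leave them out. Of the other members called below, Dnajc10 also held a match, Dnajc21, Hspa2 and Hspa4 held none, and Cct4 and Bag4 had no listed window. Either motif lay in 25.3% of the 83 member windows and in 15.1% of all 32851 windows. In a run of 3 GAA units in alternating orientation the 2 short motifs overlap. Such a run lay in 7.23% of member windows and in 0.603% of all windows. The member windows with it were 6, from the 4 symbols Dnajb6, Hspd1, Hspe1 and Hsph1. Genes with more than 1 listed start count more than once, so the windows are not all separate promoters. A match is a string of letters and does not show binding. In the sequences below, written 5′ to 3′ along the gene's own strand, capitals mark the matches.
Hsph1 (chr5:149636287-149636586, minus strand): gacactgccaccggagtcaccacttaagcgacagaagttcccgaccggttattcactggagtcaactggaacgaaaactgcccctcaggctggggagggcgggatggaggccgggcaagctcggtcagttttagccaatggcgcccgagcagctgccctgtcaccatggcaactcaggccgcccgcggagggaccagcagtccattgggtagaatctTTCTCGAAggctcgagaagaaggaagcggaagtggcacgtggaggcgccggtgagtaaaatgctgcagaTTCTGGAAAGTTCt
Hspe1 (chr1:55087898-55088197, plus strand): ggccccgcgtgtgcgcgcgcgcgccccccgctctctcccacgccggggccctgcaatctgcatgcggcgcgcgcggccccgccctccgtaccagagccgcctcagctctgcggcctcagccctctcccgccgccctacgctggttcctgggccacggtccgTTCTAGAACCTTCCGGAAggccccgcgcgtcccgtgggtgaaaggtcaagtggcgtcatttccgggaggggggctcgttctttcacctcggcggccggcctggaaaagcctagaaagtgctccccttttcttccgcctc
Hspa1b (chr17:34959189-34959488, minus strand): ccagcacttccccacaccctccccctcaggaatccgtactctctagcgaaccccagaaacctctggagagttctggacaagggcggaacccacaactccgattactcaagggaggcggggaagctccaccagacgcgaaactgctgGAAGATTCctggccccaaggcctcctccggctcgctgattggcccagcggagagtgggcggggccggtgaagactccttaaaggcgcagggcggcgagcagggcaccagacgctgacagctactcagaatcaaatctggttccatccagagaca
Cct5 (chr15:31601797-31602096, minus strand): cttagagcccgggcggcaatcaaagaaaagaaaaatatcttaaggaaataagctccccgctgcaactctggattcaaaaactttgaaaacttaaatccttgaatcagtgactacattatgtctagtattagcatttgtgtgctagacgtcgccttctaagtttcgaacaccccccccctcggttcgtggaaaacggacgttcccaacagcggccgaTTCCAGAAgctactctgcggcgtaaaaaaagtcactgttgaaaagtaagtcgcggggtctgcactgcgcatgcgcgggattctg
In the Hspe1 window 3 matches overlap in a run that begins 89 bases before its start. Hsph1 has matches beginning 33 bases before and 36 and 41 bases after the start, Hspa1b a single match 104 bases before it, and Cct5 a single match 34 bases before it.

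Q140 carriers were first compared with non-carriers over the 3 Msh3 genotypes, 24 libraries against 24. The CCT chaperonin stood slightly higher: all 8 subunits had a log2 fold change above 0, from 0.02 to 0.09, with a median of 0.05 against a median of -0.0008 over all genes tested. Cct5 and Cct4 rose and Dnajc21 fell, which makes 3 of 78 members called, beside 1.47% of all 19547 genes tested, 0.711% on the higher and 0.762% on the lower side (edgeR quasi-likelihood test, Benjamini-Hochberg adjusted p under 0.05). An unadjusted p under 0.05 was reached by 13 members on the higher side and by 2 on the lower side, where 8.28% and 6.78% of all genes did so. Over all members, 45 lay above 0 and 33 below, and 49.5% of all genes tested lay above 0. Levels and fold changes from here on are CPM with TMM-normalized library totals, and log2 fold changes carry their standard error.

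Cct5, the epsilon subunit (chromosome 15, 31590800 to 31601804, minus strand), had a lowest, median and highest library of 94.8, 98.9 and 104 CPM in Q140, of 80.9, 99.2 and 102 CPM in Q140 Msh3+/- and of 90.8, 98.3 and 103 CPM in Q140 Msh3-/-. The corresponding libraries of Msh3+/- had 84.7, 88.4 and 103 CPM, those of Msh3-/- had 86.9, 91.3 and 106 CPM, and those of wild type 84.3, 92.8 and 98.3 CPM. The median of each Q140 group was above the median of each group without it, and the ranges overlapped. Its mean was 98.2 ± 4.81 CPM in carriers and 92.1 ± 5.30 CPM in non-carriers (SD, n = 24 each), which is 0.09 ± 0.023 on the log2 scale (edgeR adjusted p = 0.0239).

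Cct4, the delta subunit (chromosome 11, 22990519 to 23003780, plus strand), had 59.1, 63.0 and 72.9 CPM as its lowest, median and highest library in Q140, 56.2, 61.5 and 63.8 CPM in Q140 Msh3+/- and 58.7, 61.2 and 66.7 CPM in Q140 Msh3-/-. In Msh3+/- these were 55.8, 57.7 and 65.5 CPM, in Msh3-/- 54.2, 56.7 and 62.7 CPM, and in wild type 53.9, 61.4 and 64.7 CPM. The wild-type median was close to those of Q140 Msh3+/- and Q140 Msh3-/-, the medians of Msh3+/- and Msh3-/- were lower, and the ranges overlapped. Carriers averaged 62.5 ± 3.45 CPM and non-carriers 58.8 ± 3.52 CPM (SD, n = 24 each), at 0.09 ± 0.023 on the log2 scale (edgeR adjusted p = 0.0351).

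The other 6 subunits were not called. Tcp1, the alpha subunit, had 127.9 ± 6.52 CPM in carriers and 123.4 ± 6.44 CPM in non-carriers (log2 fold change 0.05 ± 0.021, edgeR adjusted p = 0.224). Cct2, the beta subunit, was at 0.02 ± 0.018 on the log2 scale (edgeR adjusted p = 0.613). In the single comparisons of 8 libraries against 8, all 8 subunits lay above 0 in Q140 against wild type and in Q140 Msh3-/- against Msh3-/-, with medians of 0.06 and 0.08 on the log2 scale, and 6 of 8 did so in Q140 Msh3+/- against Msh3+/-, with a median of 0.03; of all genes tested 50.3%, 49.5% and 51.4% lay above 0 there. No libraries are shared between those 3 comparisons, but together they make up the averaged contrast. The 8 subunits also varied together within genotype and sex (median r = 0.593), so their counts are not 8 separate observations.

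Dnajc21 (chromosome 15, 10446756 to 10470516, minus strand), whose human protein takes part in the maturation of ribosomes, went the other way. Its lowest, median and highest libraries had 40.6, 48.3 and 52.6 CPM in Q140, 37.9, 46.0 and 51.0 CPM in Q140 Msh3+/-, and 36.9, 44.2 and 48.4 CPM in Q140 Msh3-/-. Libraries of Msh3+/- had 43.5, 47.2 and 60.1 CPM, those of Msh3-/- 44.6, 47.6 and 56.6 CPM, and those of wild type 48.9, 53.9 and 56.8 CPM. The median of Q140 was slightly above those of Msh3+/- and Msh3-/- and below that of wild type, and the ranges of carriers and non-carriers overlapped. The mean fell to 45.7 ± 4.32 CPM in carriers, against 50.6 ± 4.99 CPM in non-carriers (SD, n = 24 each; log2 fold change -0.15 ± 0.038, edgeR adjusted p = 0.0299).

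**Figure D2:**
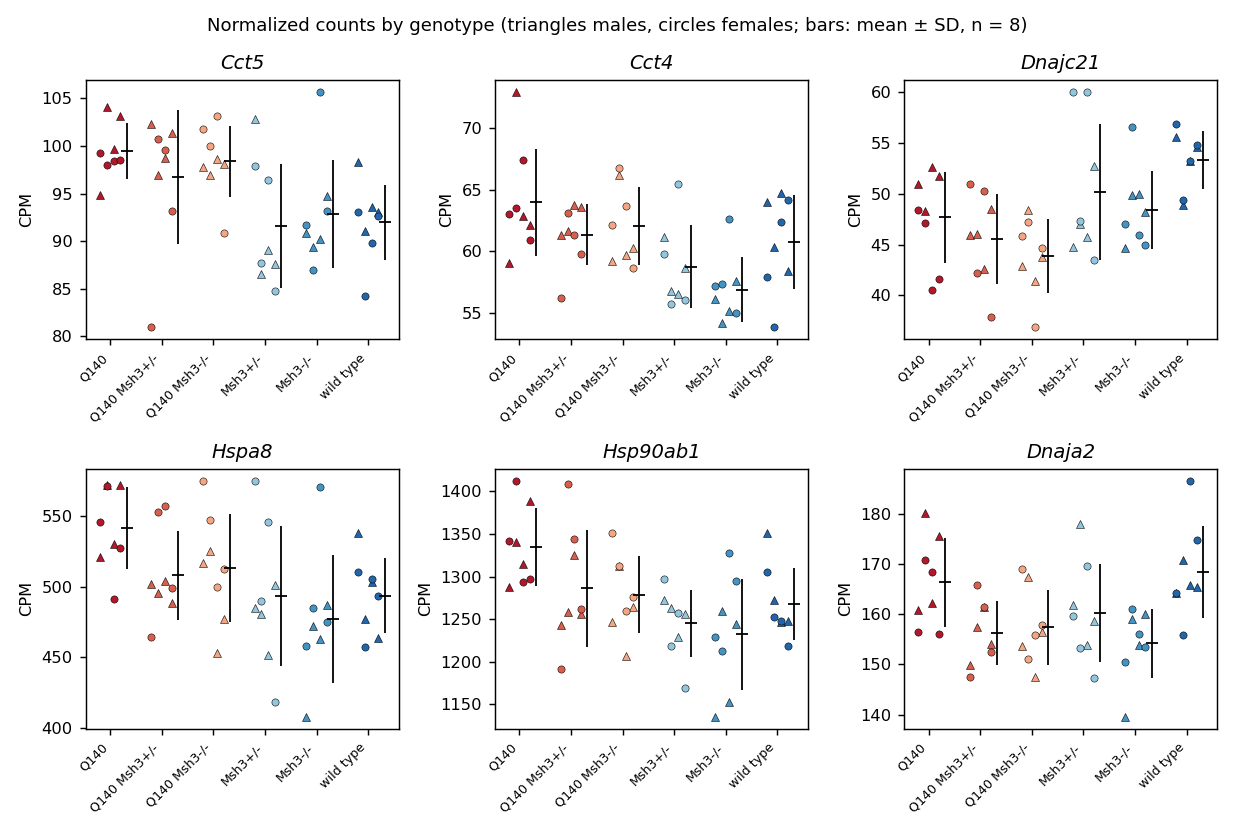
Normalized counts (CPM) of 6 members in each of the 48 libraries by genotype, with males as triangles, females as circles and the mean ± SD of 8 libraries as bars. Cct5 and Cct4 average higher and Dnajc21 lower over Q140 carriers than over non-carriers. Libraries overlap, and for Cct4 and Dnajc21 so do the group medians. Dnaja2 averages 168 CPM in wild type and 154 CPM in Msh3-/-.

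Several cytosolic HSP90, HSP70, HSP110 and J-domain members were not called by edgeR. Hsp90ab1 averaged 1300 ± 57.8 CPM in carriers and 1248 ± 50.3 CPM in non-carriers (log2 fold change 0.06 ± 0.018, edgeR adjusted p = 0.0772), with a median of 1328 CPM in Q140 and 1250 CPM in wild type. DESeq2 did call Hsp90ab1 higher in carriers (0.06, DESeq2 adjusted p = 0.0494), beside 2.37% of all genes by DESeq2. Hspa8 averaged 521 ± 35.2 CPM in carriers and 488 ± 40.5 CPM in non-carriers (0.09 ± 0.029, adjusted p = 0.0876 in edgeR). Hspa8 libraries ran from 491.8 to 572 CPM in Q140 and from 457 to 538 CPM in wild type, so the groups overlapped. For Hsph1, the HSP110 that releases nucleotide from HSP70, the log2 difference was 0.07 ± 0.030 (adjusted p = 0.23, edgeR), and for the inducible J-domain gene Dnajb1 it was 0.08 ± 0.030 (adjusted p = 0.154).

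The strongly heat-inducible genes did not pass the test. Hspa1a had lowest, median and highest libraries of 6.33, 7.17 and 8.23 CPM in Q140 and of 5.31, 6.70 and 7.70 CPM in wild type, and its log2 fold change over all carriers was 0.06 ± 0.041 (edgeR adjusted p = 0.527). Hspa1b, Hspb1, Hspb8 and Bag3 had log2 fold changes of 0.04 ± 0.056, 0.17 ± 0.096, -0.07 ± 0.059 and 0.02 ± 0.040. Hsf1 and Hsf2 had 0.02 ± 0.032 and 0.01 ± 0.029. The small heat shock gene Hspb3 had the largest value among the members, 0.22 ± 0.074 (edgeR adjusted p = 0.116), at only 2.86 ± 0.507 CPM in carriers and 2.45 ± 0.447 CPM in non-carriers.

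Chaperones of the endoplasmic reticulum and mitochondria were also not called. Hspa5 and Hsp90b1 had log2 fold changes of 0.02 ± 0.062 and -0.02 ± 0.028, and the mitochondrial Hspa9, Hspd1 and Hspe1 had 0.01 ± 0.019, 0.03 ± 0.019 and 0.05 ± 0.030. Of the 38 J-domain genes, Dnajc21 was the single called one; behind it on the lower side came Dnajc9, a histone co-chaperone in human cells (-0.05 ± 0.025), and Dnajc15, of the mitochondrial inner membrane (-0.07 ± 0.033). Dnajb6, Dnajb2, Dnajc5 and Dnajc6 lay between -0.01 and 0.03.

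Partner genes outside the naming rule were read in 6 lists beside the members. In Q140 carriers edgeR called none of their genes, and DESeq2 called 1, a prefoldin or chaperonin helper gene, higher, beside 2.37% of all genes by DESeq2. Of 29 cytosolic HSP70 and HSP90 co-chaperones, 22 lay above 0, with a median of 0.02 and 7 at an unadjusted p under 0.05, all higher. Of 13 prefoldin and chaperonin helper genes 9 lay above 0, with a median of 0.03 and 4 higher and 1 lower at that p. The 21 genes of endoplasmic reticulum folding, the 13 of mitochondrial folding and the 6 J-domain and small heat shock genes with other names had medians of 0.005, 0.02 and -0.02, and 10 regulators had 0.005, each list with 2 or 3 genes at that p.

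The Q140 calls did not hold in every setting. A term for the plate column, read from the well address in the labels, left no member called; Cct5 then had a log2 fold change of 0.07 (adjusted p = 0.246), Cct4 one of 0.07 (0.236) and Dnajc21 one of -0.13 (0.149) in edgeR, while all 8 CCT subunits stayed above 0 with a median of 0.04. Carriers filled 7 of 8 wells of column 1 and 2 to 4 of 8 in the others, and what was done on that plate is not given in the labels. Without the 2 marker-rich libraries, Dnajc21 was called, and Cct5 (0.08, adjusted p = 0.0584) and Cct4 (0.08, 0.078) were not, at log2 fold changes close to those with all libraries. Astrocyte markers moved with the same contrast: 5 of 8 were called lower and none higher, their sum being 5217 to 6099 CPM in carriers and 5561 to 6923 CPM in non-carriers, and 1 of 7 striatal markers was called higher and 1 of 3 tested pituitary markers lower. Their part in the chaperone results was not tested, and in bulk cortex fewer cells of a type and less RNA per cell cannot be told apart.

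The single Q140 comparisons, with 8 libraries against 8, called no member by edgeR or DESeq2. At an unadjusted p under 0.05 in edgeR there were 11 members in Q140 against wild type, 3 in Q140 Msh3+/- against Msh3+/- and 13 in Q140 Msh3-/- against Msh3-/-, where 8.8%, 7.77% and 6.77% of all genes did so and edgeR called 0.102%, 0.0512% and 0.0205%. The Cct5 log2 fold changes in those 3 comparisons were 0.11 ± 0.039, 0.08 ± 0.040 and 0.08 ± 0.039, those of Dnajc21 were -0.16 ± 0.065, -0.14 ± 0.065 and -0.14 ± 0.065, and those of Hspa8 were 0.13 ± 0.051, 0.04 ± 0.051 and 0.10 ± 0.051. Whether the Q140 effect differed with Msh3 genotype was tested directly by interaction terms. Neither called a member in edgeR or DESeq2, 1 member in each had an unadjusted p under 0.05 in edgeR, where 3.3% and 3.2% of all genes did so, and edgeR called 0% of all genes. Any difference over the 6 groups was called for no member by edgeR, with 14 at an unadjusted p under 0.05, beside 11.4% of all genes at that p and 0.45% called, and for Dnajc21 alone by DESeq2, beside 0.941% of all genes by DESeq2.

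Mice labelled Msh3-/- were compared with Msh3+/+ over Q140 status, 16 libraries against 16. Here most chaperones stood slightly lower: 57 of 78 members had a log2 fold change below 0 and 21 above, where 52.6% of all genes tested lay above 0, and the median was -0.03 against 0.005 over all genes. No member was called by edgeR, beside 0.215% of all genes. An unadjusted p under 0.05 was reached by 20 members, all on the lower side, where 7.13% of all genes stood on that side and 7.81% on the higher, and DESeq2 called Dnaja2 and Hspa9 lower, beside 0.691% of all genes by DESeq2. The CCT, HSP110 and HSP90 families lay below 0 in every member, with medians of -0.04, -0.07 and -0.05. In the HSP70 family, 5 to 6 of 11 members lay above 0 over the 48 fits without 1 library, with medians from -0.02 to 0.02. Members of the CCT, HSP110 and HSP90 families also varied together within genotype and sex (median r = 0.593, 0.625 and 0.607). The counts of members below 0 are therefore not counts of separate observations.

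Dnaja2, a cytosolic J-domain partner of Hspa8, had the smallest p. Its lowest, median and highest libraries had 147.5, 156 and 169 CPM in Q140 Msh3-/-, against 156, 165.4 and 180.2 CPM in Q140, and 139.6, 154.9 and 160.9 CPM in Msh3-/-, against 155.8, 165.6 and 186.5 CPM in wild type. Msh3-/- mice averaged 155.8 ± 7.15 CPM and Msh3+/+ mice 167 ± 8.77 CPM (SD, n = 16 each; log2 fold change -0.10 ± 0.026, edgeR adjusted p = 0.068). In the heterozygotes the medians were 155.7 CPM in Q140 Msh3+/- and 159.1 CPM in Msh3+/-.

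Hspa9, mortalin, the mitochondrial HSP70 that pulls imported proteins into the matrix, averaged 182.6 ± 8.30 CPM in Msh3-/- and 193.8 ± 9.79 CPM in Msh3+/+ mice (log2 fold change -0.09 ± 0.024, edgeR adjusted p = 0.0861). Its group means were 187 and 178 CPM in Q140 Msh3-/- and Msh3-/-, against 194 and 193 CPM in Q140 and wild type. Hspd1 had 80.5 ± 4.16 CPM in Msh3-/- and 84.6 ± 3.55 CPM in Msh3+/+ mice (-0.07 ± 0.023, edgeR adjusted p = 0.15), and Hspa4, an HSP110, had 226 ± 17.2 CPM and 240 ± 13.6 CPM (-0.09 ± 0.029, adjusted p = 0.15 in edgeR). Hsp90b1 was at -0.09 ± 0.034 and Hsp90ab1 at -0.05 ± 0.022, while on the higher side the smallest p values belonged to Dnajb2, Hspa1b and Dnajc11, at 0.04 ± 0.023, 0.11 ± 0.069 and 0.03 ± 0.019.

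Among the partner lists, 17 of 21 endoplasmic reticulum genes lay below 0 (median -0.03), where 52.6% of all genes lay above 0. Of 29 cytosolic co-chaperones (median -0.02), 9 had an unadjusted p under 0.05 on the lower side, beside 7.13% of all genes. The remaining lists are given as medians over the 48 fits without 1 library. J-domain and small heat shock genes with other names had 0.01 to 0.03, and mitochondrial folding genes -0.001 to 0.01. Regulators had -0.003 to 0.02, and prefoldin and chaperonin helpers -0.01 to 0.005. In this contrast astrocyte markers summed to a median of 5975 CPM in Msh3-/- and 6093 CPM in Msh3+/+ mice. The count of members below 0 was 57 also with a plate column term, without the 2 marker-rich libraries and by DESeq2. A gene-by-gene call stood on few libraries: leaving out 1 library gave from 0 to 2 called members, with 2 when male 2 of Q140 Msh3-/- was left out and 1 without female 4 or male 1 of Q140, female 1 of Q140 Msh3-/-, female 2 of Msh3-/- or female 2 of wild type.

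The single Msh3 comparisons called no member by edgeR or DESeq2. In Msh3-/- against wild type 54 of 78 members lay below 0 and 17 reached an unadjusted p under 0.05, where 52.2% of all genes lay above 0, 10.8% reached that p and edgeR called 0.113%. In Q140 Msh3-/- against Q140 56 lay below 0 and 7 reached that p, beside 51.4%, 6.86% and 0.102% of all genes. In Q140 Msh3+/- against Q140 63 lay below 0 and 5 reached it, beside 51%, 6.22% and 0.0307%. In Msh3+/- against wild type 46 lay below 0 and 4 reached it, beside 50.9%, 4.96% and 0.0307%. Msh3-/- and Msh3+/- share their wild-type or Q140 libraries in these comparisons, so the counts do not stand for separate evidence.

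**Figure D3:**
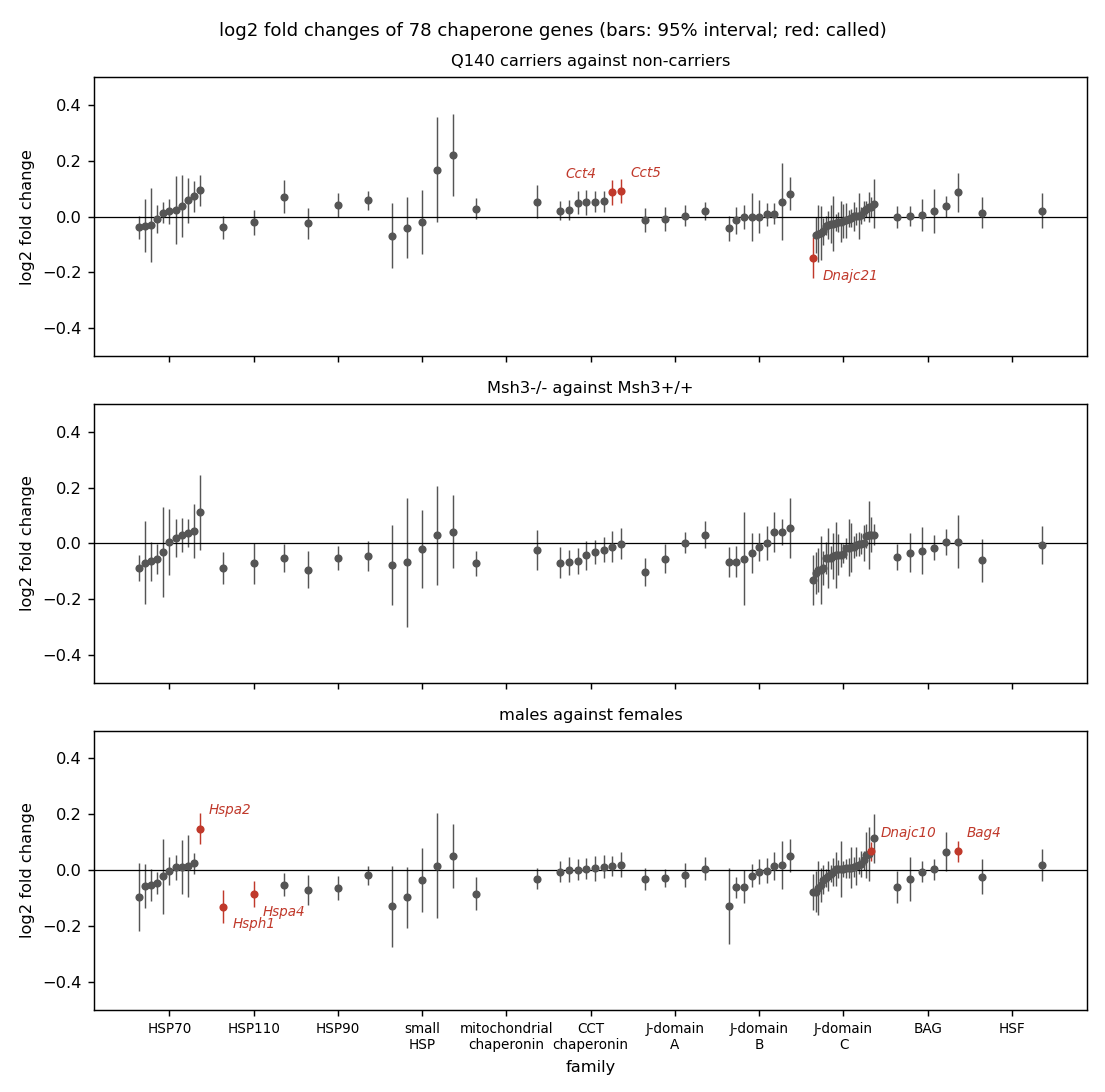
log2 fold changes of the 78 members by family in 3 comparisons, ordered by value within a family, with 95% intervals as bars and called members in red. Called members are Cct5, Cct4 and Dnajc21 in Q140 carriers and Hspa2, Hsph1, Hspa4, Dnajc10 and Bag4 between the sexes; in Msh3-/- against Msh3+/+ none is called and 57 points lie below 0.

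Males were compared with females over the 6 genotypes, 24 libraries each, and edgeR called 5 of 78 members, beside 4.28% of all genes tested, 1.63% on the higher and 2.65% on the lower side. Hspa2, Dnajc10 and Bag4 were higher in males, and Hsph1 and Hspa4 lower. Over all members 38 lay above 0, where 50.2% of all genes did. The 3 HSP110 genes and the 3 HSP90 genes all lay below 0, with medians of -0.09 and -0.06, while the CCT subunits lay between -0.01 and 0.02. At an unadjusted p under 0.05 there were 4 members on the higher and 11 on the lower side, where 7.86% and 9.54% of all genes stood.

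Hspa2, an HSP70 that male germ cells of mice need for meiosis, had lowest, median and highest libraries of 31.5, 39.3 and 43.0 CPM in males and of 30.4, 34.9 and 40.1 CPM in females. The mean was 38.9 ± 3.15 CPM in males and 35.1 ± 2.22 CPM in females (SD, n = 24 each; log2 fold change 0.15 ± 0.029, edgeR adjusted p = 0.000763). Males had the higher mean in 6 of 6 genotypes. Among the 24 females, 1 library exceeded 40 CPM, and the ranges overlapped.

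Hsph1 had 211, 237 and 273 CPM as its lowest, median and highest library in males and 214, 258 and 312 CPM in females. The means were 240 ± 16.1 CPM in males and 263 ± 23.6 CPM in females (log2 fold change -0.13 ± 0.030, n = 24 each, edgeR adjusted p = 0.00595), and males were lower in 6 of 6 genotypes, from 260 against 272 CPM in Q140 to 236 against 273 CPM in Q140 Msh3-/-. Hspa4 had 192, 228 and 246 CPM as its lowest, median and highest library in males and 212, 238 and 275 CPM in females, with means of 225.7 ± 13.9 CPM in males and 239 ± 15.6 CPM in females (-0.09 ± 0.023, edgeR adjusted p = 0.0242), also lower in 6 of 6 genotypes. The third HSP110, Hspa4l, had -0.05 ± 0.021 (edgeR adjusted p = 0.162).

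Dnajc10, an endoplasmic reticulum reductase that opens wrong disulfide bonds, ran from 69.8 to 79.2 CPM in males and from 65.4 to 74.8 CPM in females, with means of 73.9 ± 2.68 CPM in males and 70.6 ± 2.76 CPM in females (log2 fold change 0.07 ± 0.017, edgeR adjusted p = 0.0140). Bag4, which in human cells binds the silent death domain of the tumour necrosis factor receptor, ran from 66.1 to 80.7 CPM in males and from 67.2 to 74.7 CPM in females, with means of 74.2 ± 3.64 CPM in males and 70.8 ± 2.26 CPM in females (0.07 ± 0.019, edgeR adjusted p = 0.0250). Male means were above female means in 6 of 6 genotypes for both genes, although for Bag4 the distance was 0.130 CPM in Q140 Msh3+/- and 0.224 CPM in Msh3-/-. Just outside the threshold were Dnajb2 (-0.06 ± 0.019, edgeR adjusted p = 0.0509), Hsp90aa1 (-0.06 ± 0.022, 0.0909) and Hspe1 (-0.08 ± 0.030, 0.0958).

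**Figure D4:**
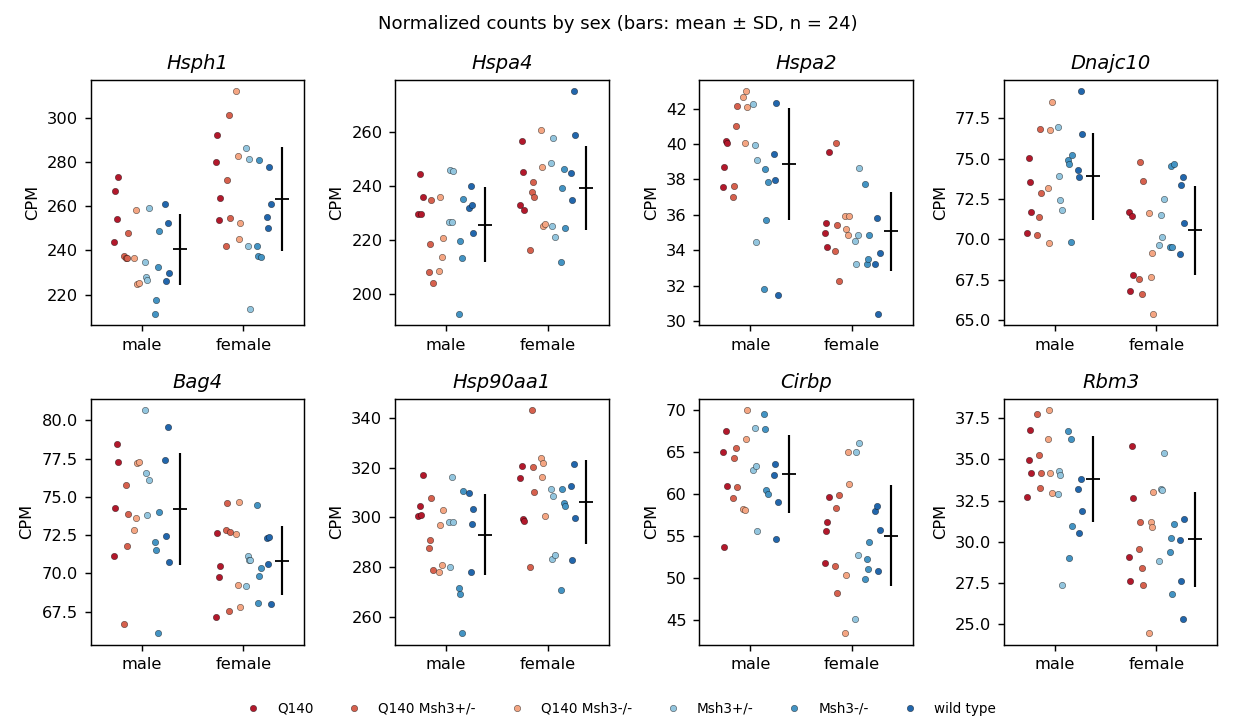
Normalized counts (CPM) in males and females for 6 members and for the cold-inducible genes Cirbp and Rbm3, each point a library coloured by genotype, with the mean ± SD of 24 libraries as bars. Hsph1 averages 240 CPM in males and 263 CPM in females, and Cirbp 62.4 CPM in males and 55.0 CPM in females.

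Most genes of the partner lists were not called between the sexes. Among the cytosolic co-chaperones, Stip1, which bridges HSP70 and HSP90, fell in males (-0.07 ± 0.021, edgeR adjusted p = 0.0397), as did Sgtb (-0.08 ± 0.023, edgeR adjusted p = 0.0237). The small heat shock protein gene Cryab, abundant in oligodendrocytes, had 45.7 ± 5.30 CPM in males and 52.1 ± 4.54 CPM in females (-0.19 ± 0.041, edgeR adjusted p = 0.00277), and Clpb, a mitochondrial disaggregase, had -0.06 ± 0.018 (0.0303). These 2 are the single called genes of the 6 J-domain and small heat shock genes with other names and of the 13 mitochondrial genes, beside 4.28% of all genes. Of 21 endoplasmic reticulum folding genes, 20 lay below 0 with a median of -0.05, and edgeR called none; 7 of them had an unadjusted p under 0.05, and DESeq2 called 2, beside 5.01% of all genes by DESeq2.

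On the other side stood the cold-inducible RNA-binding protein genes Cirbp and Rbm3, whose transcripts are known to rise as temperature drops. The part of temperature in the sex differences was not tested. Cirbp had lowest, median and highest libraries of 53.6, 62.5 and 70.0 CPM in males and 43.4, 54.9 and 66.1 CPM in females, at 0.18 ± 0.040 on the log2 scale (edgeR adjusted p = 0.00413), and males were higher in 6 of 6 genotypes. Rbm3 had 33.8 ± 2.61 CPM in males and 30.2 ± 2.88 CPM in females (0.16 ± 0.035, n = 24 each, edgeR adjusted p = 0.00264); in Msh3+/- the male mean was 32.2 CPM and the female mean 32.6 CPM.

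With a plate column term, Hsph1 (-0.12, edgeR adjusted p = 0.0346) and Hspa2 (0.15, 0.00372) remained called, and Hspa4 (-0.08, 0.0625), Dnajc10 (0.06, 0.0564) and Bag4 (0.06, 0.0684) had adjusted p values above the threshold at similar fold changes. Without a filter on low counts the last 2 were not called either. Without the 2 marker-rich libraries the 5 were called together with Dnajb2. For Cirbp, Rbm3 and the called partner genes, fits with a plate column term are not given here. Markers of other cells moved with sex too: 4 of 8 oligodendrocyte markers were called lower in males, with sums of 1384 to 2048 CPM in males and 1600 to 2459 CPM in females, and 4 of 4 tested blood markers were lower, with medians of 0.680 CPM in males and 2.72 CPM in females. Also called were 2 of 7 microglial markers, lower, 2 of 3 tested pituitary markers, higher, and 1 each of the astrocyte and glutamatergic markers, higher. Their part in the sex differences was not tested.

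Between mice of the same genotype and sex, the members varied less at the median than all genes tested. The genes compared were not matched for level, and the part of level in this was not tested. The SD of log2 CPM within genotype and sex had a median of 0.0851 over the members, against 0.148 over all genes tested and 0.114 over those with a mean of at least 1 CPM. The 5 most variable members were Hspb1, Hspb3, the endothelial HSP70 relative Hspa12b, Dnajb5 and Hspa5, with SDs from 0.340 for Hspb1 to 0.223 for Hspa5. The first 3 have means of 1.31, 2.66 and 6.72 CPM, whereas Dnajb5 and Hspa5 have 186 and 178 CPM. Hspa5 ran from 133 to 230 CPM within the 8 Msh3+/- libraries alone.

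Each library's deviation from the mean of its genotype and sex was correlated in 10 pairs of genes, with p from 100000 permutations within genotype and sex, two-sided and adjusted over the 10. The genotype and sex differences are removed from these values, and all pairs share libraries and normalization. Hsph1 and its HSP70 partner Hspa8 had Pearson's r = 0.893 and Spearman's rho = 0.896 over 48 libraries (permutation p = 1e-05 for both, the smallest that these permutations can give, adjusted p = 3.33e-05 and 5e-05), and r = 0.876 without the 2 libraries farthest in Hsph1.

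Hspa5 and Hsp90b1, both of the endoplasmic reticulum, had r = 0.786 and rho = 0.783 (permutation, adjusted p = 3.33e-05 and 5e-05), with r = 0.748 without the 2 farthest libraries. The cytosolic HSP90 pair had r = 0.619 and rho = 0.568 (permutation, adjusted p = 0.0006 and 0.000875; r = 0.554 without the 2 farthest). Cct2 and Cct5 had r = 0.576 and rho = 0.527 (permutation, adjusted p = 0.00092 and 0.00228; r = 0.544 without the 2 farthest). Hspa1a and Hspa1b, which are nearly identical in sequence, had r = 0.491 and rho = 0.435 (permutation, adjusted p = 0.0113 and 0.0205; 0.469 without the 2 farthest).

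The cold-inducible gene Cirbp ran against Hsph1, with r = -0.759 and rho = -0.74 (permutation, adjusted p = 3.33e-05 and 6.67e-05) and r = -0.706 without the 2 farthest libraries. With the plate column removed as well, Hsph1 had r = 0.883 with Hspa8 and -0.804 with Cirbp, Hspa5 had 0.793 with Hsp90b1, and Cct2 had 0.621 with Cct5. The other 4 pairs did not pass: Dnajb1 with Hspa8 had r = 0.35 and rho = 0.325 (permutation, adjusted p = 0.0796 and 0.085), and Hspd1 with Hspe1, which lie head to head, r = 0.345 and rho = 0.326 (adjusted p = 0.0551 and 0.0739). With the plate column removed these became 0.447 (permutation, adjusted p = 0.0252) and 0.36 (0.0487). Hsph1 with the activity gene Fos had r = 0.0974 (permutation, adjusted p = 0.567) and Bag3 with Hspb1 had -0.0106 (0.947).

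**Figure D5:**
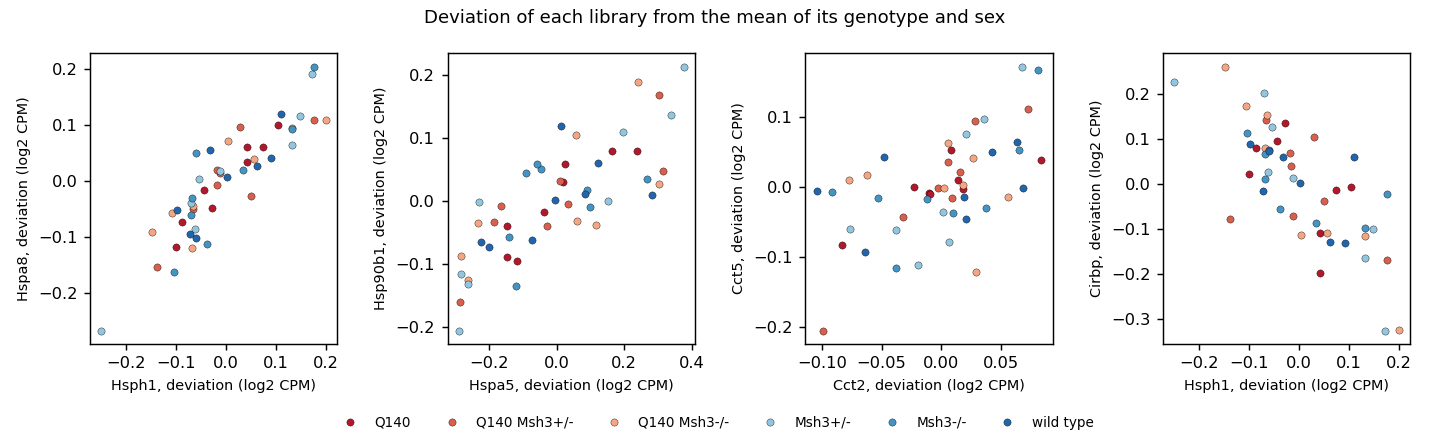
Deviation of each of 48 libraries from the mean of its genotype and sex, on the log2 CPM scale, for 4 pairs of genes, with points coloured by genotype. Hsph1 rises with Hspa8 (r = 0.893), Hspa5 with Hsp90b1 (r = 0.786) and Cct2 with Cct5 (r = 0.576), and Cirbp declines as Hsph1 rises (r = -0.759).

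Over all 3003 pairs of members the median r was 0.0797, given as a description without a test. Within the CCT chaperonin it was 0.593, with 21 of 28 pairs over 0.5 and a lowest value of 0.299; in the HSP90 and HSP110 families it was 0.607 and 0.625, and in the BAG, class B and class C J-domain and small heat shock families it lay between -0.06 and 0.06. Closest to Hsph1 after Hspa8 came Hsp90b1, at r = 0.864. With Hsph1, 16 members had r over 0.5, among them Hspa4, Hspa5, Hsp90ab1, Hspd1, Dnaja1, Cct4, Cct5 and Dnajc21. Another 21 members had r below 0 with Hsph1, the lowest being Bag6 at -0.319. The shares of all genes tested with such values were not computed. Among the closest pairs, picked after their values were seen, were Hspa5 with the endoplasmic reticulum J-domain genes Dnajb11, Dnajc1 and Dnajc3, at 0.863, 0.839 and 0.827, and Cct8 with Dnaja1, at 0.824. Dnajc10, also of the endoplasmic reticulum, had r = -0.191 with Hsph1.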

How the data were processed

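RNA was measured in 48 cortex libraries made, per the labels' protocols, with an Illumina TruSeq stranded kit. That protocol text names striatal tissue at an earlier age; the remaining labels name cortex at 12 months, which was used. The deposited counts are whole numbers of reads for each Ensembl gene, not normalized. The deposited FPKM values are, by the authors, those counts over library total and a fixed gene length (constant within 7.1e-06 bp in each member). Per the submitters' processing notes, tools were STAR 2.7.5c, SAMtools 1.10 and HTSeq 0.12.3, and GRCm38 as well as mm10 are listed as builds; the annotation release and strand setting are not given in the sources used here. Gene coordinates are from GENCODE M21 (GRCm38), promoters from RefSeq (GRCm38.p6).

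Counts were filtered with filterByExpr by group (minimum count 10, minimum total 15; 19547 genes left), normalized by TMM and fitted with edgeR 4.0.16 (glmQLFit, robust) on 6 groups with an additive sex term. The 13 contrasts were tested two-sided with glmQLFTest and Benjamini-Hochberg adjusted over all genes at 0.05. The fit was tested on simulated data. Alternatives were RLE size factors, no filter, a minimum count of 100, a plate column term, no sex term, a replicate block, the name prefix as a random block (limma 3.58.1), fits of the compared groups alone, 2 marker-rich libraries left out, DESeq2 1.42.0, and 48 fits without 1 library each. No libraries of a group agreed within sampling noise (smallest chi-square per gene 7.97). P-values measure the spread between the labelled samples, about whose collection the labels say nothing further.

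The members and lists were chosen with earlier results of these data known. Named are the main genes of each family, every called member, the 3 of smallest p in each direction for Q140 carriers and for Msh3-/-, the highest and lowest, those next to the threshold, the 5 most variable, and partner genes that were called or paired. Depth was 37.7 to 68.3 M counts per library. A called partner gene is not reported here.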

Additional observations from a re-analysis of the deposited data

Results flagged for a closer look

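In 25 members and 6 groups of 8 libraries, a library was looked for that stood apart from the other 7 of its group by Dixon's criterion. Of 150 groups looked at, 8 were marked, and chance marks about 1 in 20 groups.

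Libraries stood apart in both called CCT genes. Cct5 had 80.9 CPM in female 1 of Q140 Msh3+/-, below the 93.2 to 102 CPM of the other 7, and 106 CPM in female 3 of Msh3-/-, above their 86.9 to 94.7 CPM. Cct4 had 62.7 CPM in that same female 3, above 54.2 to 57.6 CPM. Each lies against the direction of the Q140 difference, and leaving out either library gave 5 called members in Q140 carriers in place of 3. Dnajc21 had 56.6 CPM in female 2 of Msh3-/-, where the others had at most 50 CPM, and was called in each of the 48 fits without 1 library.

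Female 2 of Q140 Msh3-/- had 8.68 CPM of Hspa1a and 9.30 CPM of Hspa1b, where the other 7 had 6.44 to 7.44 and 6.06 to 7.35 CPM; the 2 genes are nearly identical in sequence, so the values may not be separate. Female 1 of the same group had 265 CPM of Hspa4l, above 222 to 242 CPM, and 44.0 CPM of Bag5, above 39.6 to 40.1 CPM. Neither gene was called in any comparison.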

How the results depend on the processing

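The 3 members called in Q140 carriers became 1 without a filter on low counts, 0 with a plate column term and 1 without the 2 marker-rich libraries; fits without 1 library gave from 2 to 5, the 5 without female 1 of Q140 Msh3+/- or female 3 of Msh3-/-. The 288 genes called there became 102 with the plate column term, 185 without the marker-rich libraries and 463 with DESeq2, and were 201 to 475 without 1 library. By DESeq2 the same 3 members were called together with Hsp90ab1 (DESeq2 adjusted p = 0.0494). Cct4 was called in 30 of the 48 fits without 1 library, and Cct5 and Dnajc21 in all 48. In Msh3-/- against Msh3+/+ the 0 called members became 2 with DESeq2 and 0 to 2 without 1 library, and the difference over any genotype gave 1 with DESeq2 and 0 in every fit without 1 library. Between the sexes 5 became 3 without a filter and 2 with the plate column term, and 5 to 7 members and 688 to 896 genes were called without 1 library. The single and interaction comparisons gave 0 members in each of those fits. The cause was not tested for any of these shifts. No called member changed direction in 62 values under the alternatives or in 384 values from the 48 fits without 1 library. The correlation of Bag3 with Hspb1 turned to 0.0441 with the plate column removed. Membership at a mean of 0.5 or 2 CPM would be 80 or 77 genes.

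With the replicate block, 3 members were called in Q140 carriers, the same Cct4, Cct5 and Dnajc21 (adjusted p = 0.0281, 0.0190 and 0.0232, edgeR), and 1 in Msh3-/- against Msh3+/+, Dnaja2 (0.0274, edgeR). Of 120 pairs of same-numbered libraries, 10 correlated over 0.1, with a median of 0.0084 and a highest value of 0.382. Among pairs of the same sex with other numbers these were 20 of 360, 0.0002 and 0.171. Whether same-numbered libraries are related was not tested. The lowest count of any library was 34 in Hspb1 and 209 in Hspb8.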
